A study of Arabidopsis thaliana with 20 samples.

Results

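Plastid-encoded transcripts are the RNAs read from the circular chromosome of the chloroplast, and were taken here as all loci of the deposited tables whose identifier begins with ATCG. These were 88 of 27562 genes, each with 1 transcript. Expression was measured by RNA sequencing of hand-dissected *Arabidopsis thaliana* meristems, with 5 libraries of about 50 meristems in each of 4 groups. Each genotype gave shoot apical meristems (SAM) and inflorescence meristems (IM). The genotypes were Col-0, the wild type, and *plt3 plt7*, a CRISPR double mutant of the transcription factors *PLT3* and *PLT7*, which belong to the PLETHORA family, and the labels name no treatment. SAMs came from seedlings 7 d post germination (dpg) grown on nylon mesh over agar medium under fluorescent tubes, and their larger leaves and stem were cut away. IMs came from plants of 31 to 33 dpg on soil under LED light, trimmed until only young floral primordia were left around the meristem. Tissue therefore goes with age, substrate, light and harvest, and these cannot be told apart. The name of each locus was read from the plastid chromosome of the TAIR10.1 annotation (154478 nt): 81 loci by transcript length and 5 by their neighbours and reading frame, while ATCG00870 and ATCG01270 were left without a name.

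The plastid chromosome encodes core subunits of the photosynthetic complexes, part of the plastid ribosome and the catalytic core of the plastid-encoded RNA polymerase (PEP), and the remaining subunits are imported from the nucleus. Many plastid genes lie in clusters that are transcribed together and then cut and trimmed, and a second, nuclear-encoded polymerase (NEP) reads housekeeping genes. Meristem cells hold proplastids, small plastids without developed thylakoids, which become chloroplasts as leaves form. Stable poly(A) tails are not a feature of plastid mRNAs, since a tail there marks an RNA for decay. The sources used here do not state whether the libraries were selected on poly(A), so the levels below are those of the plastid RNA that entered the libraries.

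The libraries held 24.8 to 114.9 M estimated counts. No 2 libraries of a group were alike within sampling noise. The transcripts of the mutated genes were still detected in *plt3 plt7*: *PLT3* had 12.1 to 19.8 counts per M counts (CPM) in Col-0 SAM against 6.80 to 8.65 in the mutant and 36.3 to 45.8 against 20.5 to 25.7 in IM, whereas the ranges of *PLT7* overlapped in both tissues. The meristem genes *STM* and *KNAT1* were detected in every library, while *CLV3* stayed below 1 CPM in all 20 and *WUS* below 1 CPM in all SAM libraries. Together these genes summed to 38.4 to 64.8 CPM in Col-0 SAM and 46.1 to 76.2 in mutant SAM, against 127 to 141 and 122 to 143 in IM. The *CLV3* median was lower in IM. The root gene *WOX5* had 2.80 to 4.84 CPM in Col-0 SAM and 2.56 to 4.21 in mutant SAM, against 0.664 to 1.14 and 0.656 to 1.37 in IM. The 5 genes of the light-harvesting antenna, used as markers of green leaf tissue, summed to 13614.5 to 24792 CPM in Col-0 SAM and 14621 to 20298 CPM in mutant SAM, against 2253 to 2779.5 and 2051 to 2413 CPM in IM. The 5 floral primordia genes summed to at most 2.80 CPM in SAM and to 589 to 651 CPM in IM.

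A total of 80 plastid loci reached 10 counts in every library. Of the named loci, 12 are identical copies in the inverted repeat, between which kallisto divides reads equally, so that the 2 copies of a gene carry the same values and cannot be told apart, and ATCG00870 and ATCG01270 also carried equal values in every library. The short *ycf1* locus ATCG01000 received almost no counts, and all of its 31-nt words also occur in other plastid loci, among them the full-length *ycf1* ATCG01130. Words of 31 nt were shared with exons outside the plastid by 21 loci, and 7 shared over 10% of their words: *psbA* 10.8%, *ndhF* 16.1%, *rpoC2* 16.2%, *rbcL* 17.5%, *atpI* 20.8%, *rps2* 35.7% and the short *ycf1* 40.2%. Neighbouring genes on opposite strands are likewise uncertain, since the strand setting used in counting is not stated.

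Plastid RNA made up a smaller share of the estimated counts in IM than in SAM. In Col-0 SAM the 88 loci took 1.99, 1.54, 1.80, 1.78 and 1.65% of the counts of replicates 1 to 5 (1.75% ± 0.170, SD, n = 5), and in *plt3 plt7* SAM 1.95, 1.70, 1.52, 1.34 and 1.76% (1.66% ± 0.236). In Col-0 IM they took 0.996, 0.926, 1.02, 1.21 and 0.796% (0.989% ± 0.149), and in *plt3 plt7* IM 1.02, 0.808, 0.627, 0.883 and 0.883% (0.843% ± 0.142). Every IM library lay below every SAM library, in both genotypes. The mean share in IM was 1.77-fold lower in Col-0 and 1.96-fold lower in *plt3 plt7*, without a test, since a share over chosen loci was not tested. Between the genotypes the libraries overlapped in both tissues. The mutant mean was 0.946 times that of Col-0 in SAM and 0.852 times in IM, and within harvest groups the difference had no constant sign: it was +0.193, -0.185, -0.446 and +0.116 percentage points in the 4 SAM harvests and -0.0491, -0.359 and +0.0866 in the 3 IM harvests. SAM harvest 1 had 2 Col-0 libraries against 1 of the mutant, and SAM harvest 2 had 1 against 2. SAM harvests 3 and 4 and IM harvest 3 had 1 against 1. IM harvests 1 and 2, both with a negative difference, had 2 against 2. Fewer cells with developed plastids and less plastid RNA per cell cannot be told apart in these bulk samples. The green leaf markers and the root gene *WOX5* moved in the same direction as the share between the tissues. The floral markers and the sum of the meristem genes moved in the opposite direction. The part of these markers in the difference was not tested.

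**Figure D1:**
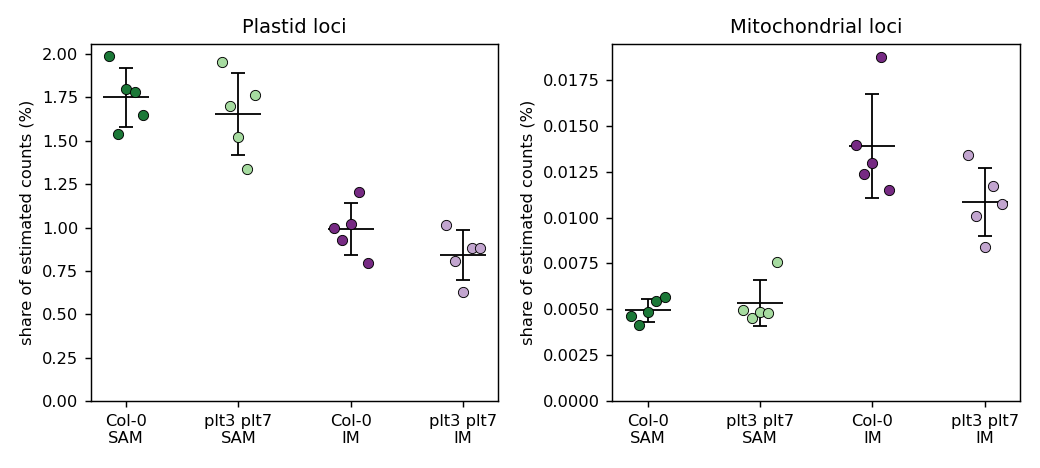
Share of estimated counts taken by plastid loci (left) and by mitochondrial loci (right), in %, in each of the 20 libraries (points, 5 per group), with the group mean (horizontal bar) and SD (error bars). All IM libraries lie below all SAM libraries for the plastid loci, from 0.627 to 1.21% against 1.34 to 1.99%, and above them for the mitochondrial loci.

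The RNA of the other organelle differed in the opposite direction. The 29 mitochondrial loci had 0.00496% ± 0.000613 of the counts in Col-0 SAM and 0.0139% ± 0.00284 in Col-0 IM (SD, n = 5 each), a 2.80-fold higher share without overlap. In *plt3 plt7* they had 0.00536% ± 0.00126 in SAM and 0.0109% ± 0.00185 in IM, which was 2.02-fold higher and again without overlap.

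A few loci held most of the plastid counts. The 5 with most counts took 64.0% of the plastid total over the 20 libraries and the top 10 took 79.8%. *ycf1* (ATCG01130, 123884 to 129244, minus strand), which encodes a protein of the chloroplast inner envelope linked to protein import, alone took 30.8%. It was followed by *atpB* with 12.0% and *atpE* with 6.38%, which encode the beta and epsilon subunits of ATP synthase, and by *rps3* with 8.24% and *rpl16* with 6.61%, which encode proteins of the small and the large ribosomal subunit. Set per length, as CPM per kb of transcript, the mean levels of *rpl32* (3742), *rpl16* (2165), *atpE* (2011), *psbM* (1909) and *rps3* (1677) were the highest 5. Genes whose mRNAs are among the most abundant of a mature leaf were lower on the same scale. *rbcL*, for the large subunit of the CO2-fixing enzyme Rubisco, had 16.8, and *psbA*, for the D1 protein of photosystem II, had 15.9. The photosystem genes *psbB* and *psaA* had 8.65 and 5.56.

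The loci fell into 9 classes by name. Ribosomal protein genes had the highest median level, 353 CPM per kb, with a range from 9.93 for *rps16* to 3742 for *rpl32*. The medians were 22.0 for ATP synthase, 16.8 for the single Rubisco gene, 15.9 for photosystem II, 15.7 for the NDH complex, 11.4 for cytochrome b6f, 8.84 for RNA polymerase and 5.74 for photosystem I. Levels spread widely within each class of more than 1 gene. Among the ATP synthase genes *atpE* and *atpB* stood at 2011 and 1042, while *atpI*, *atpH*, *atpF* and *atpA* of the other operon stood at 32.1, 11.9, 5.83 and 4.33. Among the polymerase genes *rpoA*, which lies at the end of a ribosomal protein cluster, had 201, against 14.2 for *rpoB*, 3.43 for *rpoC2* and 2.96 for *rpoC1*. Photosystem II ranged from 1.91 for *psbF* to 1909 for *psbM*. Levels of transcripts of at most 400 nt, which were 39 of the 88, depend on how fragments shorter than the mean library fragment were recovered.

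**Figure D2:**
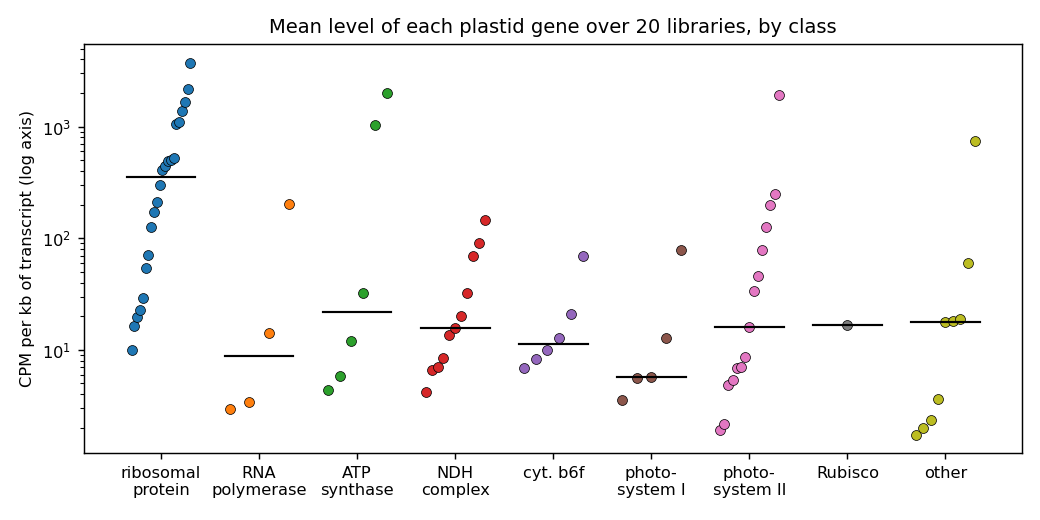
Mean level over the 20 libraries of each named plastid gene, with identical copies summed, in CPM per kb of transcript on a log axis, by class; each point is a gene and the horizontal bar is the class median. Ribosomal protein genes have the highest median, 353, and single genes of other classes such as *atpE*, *psbM* and *ycf1* lie at or above it.

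Since the transcripts of the 5 loci with most counts held 30.2 to 40.2% A, against 23.4 to 28.1% in *rbcL*, *psbA*, *psaA* and *psbB*, the most A-rich stretch of 30 nt of each is shown, in that order of groups. Positions count from the first base of the coding sequence in TAIR10.1, the sequences were read from the RefSeq copy of the plastid chromosome, and capitals mark runs of at least 4 A.
*ycf1* 2742 to 2771: AAAAAAAAgaatcAAAAAAttAAAAAAAAA
*rps3* 130 to 159: AAAAAttatgtccAAAAAAAtataagaata
*rpl16* 31 to 60: aaacaacatcgaggaagactAAAAggaata
*atpB* 1151 to 1180: attatgaaactgcgcaacaagtAAAAcaaa
*atpE* 51 to 80: agaagtAAAAgaaatcattttatctactaa
*rbcL* 462 to 491: tatccaagttgaaagagataaattgaacaa
*psbA* 676 to 705: gaaaccacagAAAAtgaatctgctaatgaa
*psaA* 1003 to 1032: cataaaggcctatatgaaattctaacaaca
*psbB* 1486 to 1515: cAAAAActtggagatccaactacAAAAcga

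The *ycf1* window held 25 A with runs of up to 9, and that of *rps3* 19 A with runs of up to 7. The windows of *rpl16*, *atpB* and *atpE* held 17, 16 and 15 A, against 15 in *rbcL*, *psbA* and *psbB* and 14 in *psaA*. Over 79 named genes with identical copies counted once, the log2 level per length correlated with the A content of the transcript with Pearson's r = 0.43 and Spearman's rho = 0.40, and with T content with r = -0.36 and rho = -0.39. It did not follow GC content (r = -0.03, rho = -0.00) or the longest run of A (r = 0.09, rho = 0.09). The genes of a class share composition, ribosomal protein genes having 31.4 to 40.4% A and photosystem II genes 21.1 to 30.4%, and within photosystem II (15 genes) the correlation had the other sign (r = -0.28, rho = -0.43). Genes rich in A were not all high. The 4 RNA polymerase genes had 31.8 to 37.2% A and a median level of 8.84 CPM per kb (2.96 to 201). The 4 photosynthesis genes shown were chosen by name. The level of the next gene on the same strand was the closest correlate (r = 0.63, rho = 0.61, 60 pairs). These are descriptions across genes of 1 chromosome in the same 20 libraries, not independent points.

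Ribosomal protein genes were the class whose share of the plastid counts, though not of the plastid TPM, was apart between SAM and IM in both genotypes, as untested values. Ribosomal protein genes took 42.1% ± 0.982 of the plastid counts in Col-0 SAM and 38.0% ± 0.913 in Col-0 IM (SD, n = 5 each), and 42.3% ± 1.76 and 38.0% ± 0.5855 in *plt3 plt7*. Their SAM and IM ranges did not overlap in either genotype, 40.8 to 43.6% against 36.9 to 39.2% in Col-0 and 39.5 to 43.8% against 37.2 to 38.7% in the mutant. The class of other genes, nearly all of it *ycf1*, took 29.7% ± 1.49 in Col-0 SAM against 34.7% ± 1.92 in Col-0 IM without overlap, and 29.6% ± 3.83 against 34.6% ± 2.21 in *plt3 plt7*, where the ranges overlapped. ATP synthase took 17.6 to 18.9% in the 4 group means. The other classes were small. Photosystem II had 4.18, 4.27, 4.71 and 4.15% in Col-0 SAM, mutant SAM, Col-0 IM and mutant IM, and the NDH complex had 2.68, 2.40, 2.32 and 2.16% in the same order. RNA polymerase had 2.14, 1.93, 1.99 and 1.98%. Photosystem I took at most 0.363% in any library, Rubisco 0.273% and cytochrome b6f 0.248%. The SAM and IM ranges of all classes other than ribosomal proteins overlapped in at least 1 genotype, and the genotypes overlapped in every class in both tissues. Set per effective length, as shares of the authors' plastid TPM, the classes ranked differently. Ribosomal protein genes then took 74.3% ± 3.09 in Col-0 SAM and 73.4% ± 1.28 in Col-0 IM, and 74.9% ± 4.997 and 70.3% ± 6.56 in *plt3 plt7*, and the tissues overlapped in both genotypes. The other class, which holds the long *ycf1*, took 1.13 and 1.56% of the TPM in Col-0 SAM and IM without overlap and 1.09 and 1.47% in the mutant with overlap. ATP synthase had group means of 11.9 to 12.2% and photosystem II of 9.29 to 13.8%. These TPM shares rest mostly on short loci. Loci of at most 400 nt held 65.8 to 82.8% of the plastid TPM but 19.0 to 27.1% of the plastid counts. Their effective length depends on the mean fragment length, which ran from 287.6 to 438.5 nt between libraries.

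**Figure D3:**
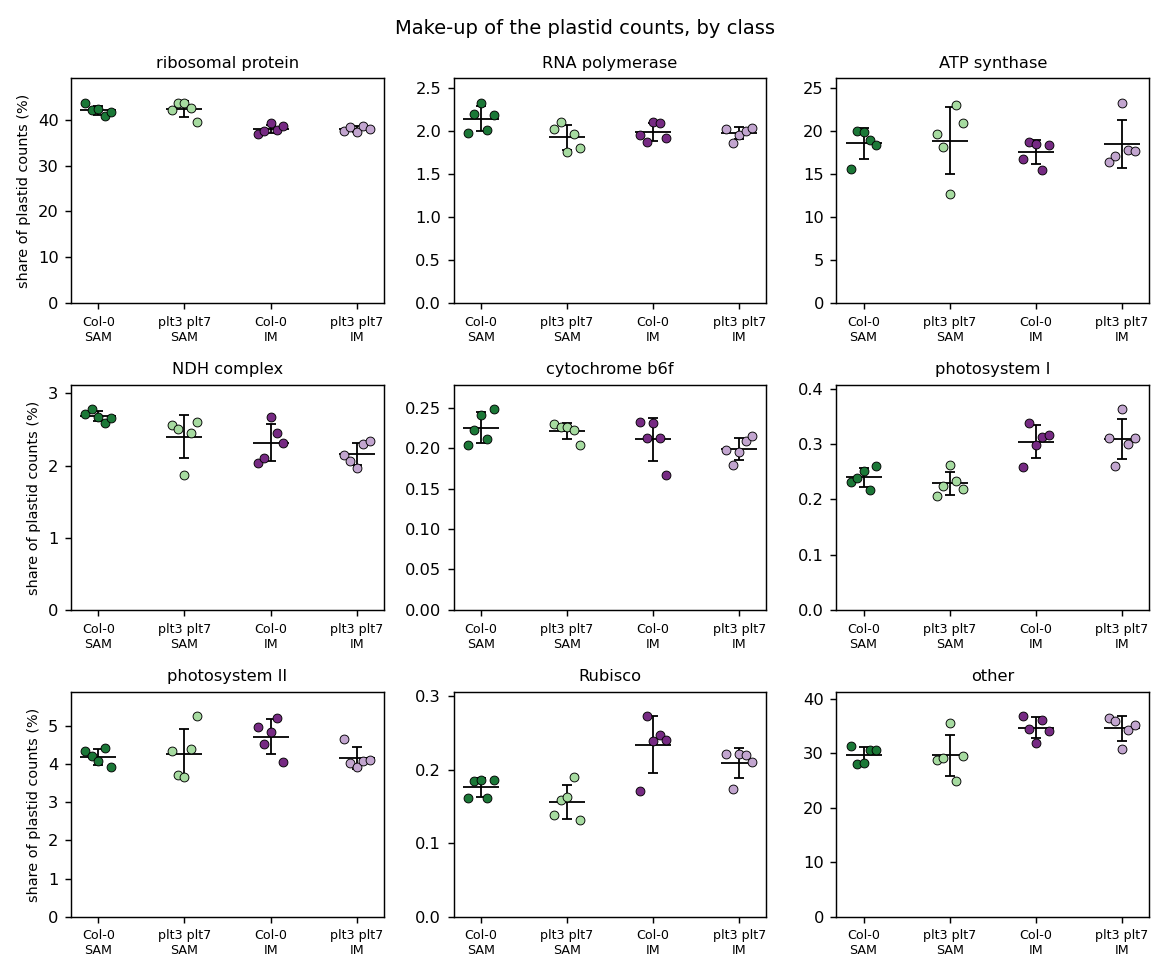
Share of the plastid counts (%) taken by each class in the 20 libraries (points, 5 per group), with the group mean (horizontal bar) and SD (error bars); each panel has its own axis, which starts at 0. Ribosomal protein genes have group means of 42.1 and 42.3% in SAM and 38.0% in both IM groups, and the other class, mostly *ycf1*, has 29.7 and 29.6% in SAM and 34.7 and 34.6% in IM; on TPM the tissues overlap for ribosomal protein genes.

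Most plastid loci were lower in IM than in SAM when each was tested against the background of all genes. Fold changes here are IM relative to SAM from a DESeq2 fit of all genes, and a locus was called at a Benjamini-Hochberg adjusted p under 0.1 over all genes tested and a change of over 25%. In Col-0, 86 loci passed the count filter, of which 65 (75.6%) were called lower and 3 higher, where 30.5% of the 19627 genes tested were lower and 26.7% higher. In *plt3 plt7*, 68 of 85 (80.0%) were lower and 2 higher, where 31.3% of 19689 genes were lower and 26.4% higher. The higher loci included, in each genotype, the pair ATCG00870 and ATCG01270, which passed the count filter through its IM libraries alone and so had to differ; without it, a choice made after its values were seen, 1 of 84 loci was higher in Col-0 and 0 of 83 in *plt3 plt7*. The median log2 fold change of the plastid loci was -0.91 in Col-0 and -1.15 in *plt3 plt7*, beside 0.02 for all genes in each. Both comparisons called 63 loci lower, which were 96.9% of the lower loci of Col-0 and 92.6% of those of the mutant. The 2 comparisons share no library. Across 78 loci their fold changes had r = 0.93 and rho = 0.88, as a description, with the genes and the tissue contrast in common. The 78 count named copies once, leave out the later exons of *rps12*, and hold both ATCG00870 and ATCG01270. This pair had to differ, as stated above, and no r is given without it. With size factors taken from the plastid loci alone, which asks for change relative to the other plastid loci and sets their middle near 0, the medians were 0.00 and -0.13, and the split became 20 higher and 25 lower in Col-0 and 21 higher and 20 lower in the mutant.

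Loci called lower were found in every class, where 30.5% of all genes tested were lower in Col-0 and 31.3% in *plt3 plt7*. In Col-0 and *plt3 plt7* respectively, the lower loci were 23 and 24 of 26 for ribosomal proteins (median log2 fold changes -1.04 and -1.28), 6 and 6 of 6 for ATP synthase (-0.89 and -0.998), 6 and 6 of 6 for cytochrome b6f (-1.17 and -1.27), and 9 and 10 of 12 for the NDH complex (-1.34 and -1.21). For photosystem II they were 10 of 14 and 12 of 13 (-0.91 and -1.22), for photosystem I 3 and 3 of 5 (-0.86 and -0.93), and for the polymerase 3 and 2 of 4 (-0.69 and -0.52). The other class had 4 and 4 of 12 lower (-0.07 and -0.10, or -0.14 and -0.19 without the pair). Its 33.3% in each genotype was near the share of all genes. Scaled on the plastid loci, these medians turned positive for ATP synthase in Col-0 (0.02), for photosystem I (0.06 and 0.04), for RNA polymerase (0.22 and 0.50) and for the other class (0.82 and 0.90, or 0.75 and 0.83 without the pair), and stayed negative for ribosomal proteins (-0.15 and -0.22), photosystem II (-0.01 and -0.17), cytochrome b6f (-0.30 and -0.26) and the NDH complex (-0.47 and -0.20). A total of 15 loci were lower in neither genotype: *matK*, *rps16*, *rpoC2*, *psaA*, *accD*, *psbL*, *ycf4*, both copies of *ycf2*, *ccsA*, *ndhD*, *psaC*, *ndhE*, ATCG00870 and ATCG01270.

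**Figure D4:**
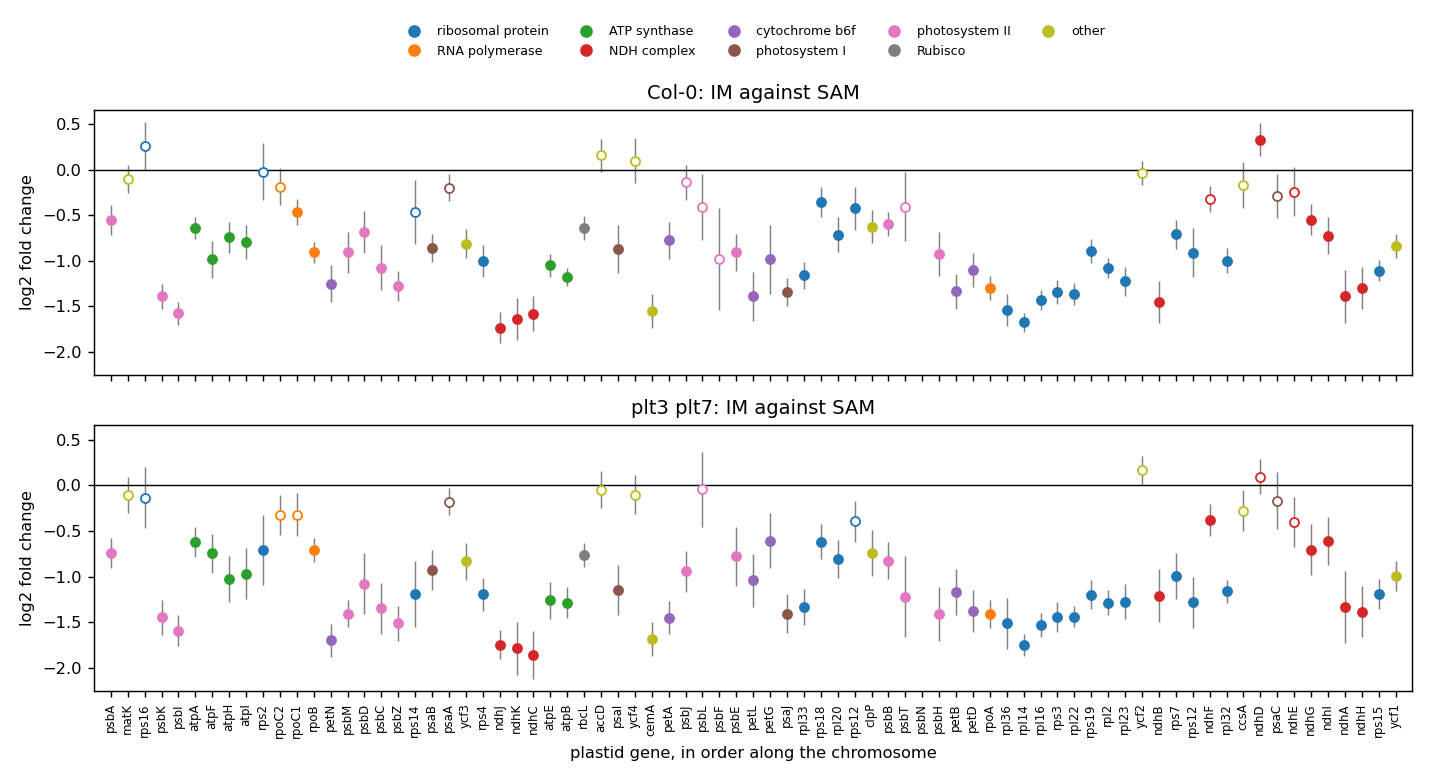
Log2 fold change of IM against SAM (y axis) for named plastid genes in order along the chromosome (x axis), in Col-0 (top) and *plt3 plt7* (bottom); identical copies are drawn once, bars are the SE, filled points passed the test and open points did not, and colours give the class. *psbN* has no point since it was below the count filter, as was *psbF* in the mutant. Most genes lie below 0, with the *rpl23* to *rpoA* stretch between -0.89 and -1.75; scaled on the plastid loci the genes lie on both sides of 0.

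Among the photosystem II genes, *psbA* (ATCG00020, 383 to 1444, minus strand) encodes the D1 reaction centre protein. *psbA* had 798, 692, 726, 678 and 808 normalised counts in Col-0 SAM and 626, 625, 695, 720.0 and 740.0 in *plt3 plt7* SAM. In IM, *psbA* had 499.7, 450.4, 504, 742 and 329 in Col-0 and 521, 474, 249.9, 379 and 421 in *plt3 plt7*. Replicate 4 of Col-0 IM reached into the Col-0 SAM range, while the mutant groups did not overlap. The log2 fold change was -0.55 (SE 0.17, adjusted p = 0.0018) in Col-0 and -0.74 (SE 0.16, adjusted p = 1.1e-05) in *plt3 plt7*. *psbD* (ATCG00270, 32711 to 33772, plus strand), for the D2 protein that pairs with D1, had the highest TPM of its class among loci over 400 nt. *psbD* had 11187, 7438, 9394, 11613 and 7707 normalised counts in Col-0 SAM and 11682, 7096, 6937, 7367 and 14509 in *plt3 plt7* SAM. In IM, *psbD* had 5718, 5019, 5987, 8732 and 3973 in Col-0 and 6538, 4644, 1897, 4546 and 4901 in *plt3 plt7*. Col-0 IM replicate 4 overlapped with Col-0 SAM, and mutant IM replicate 3 was the lowest library. IM against SAM, the log2 fold change of *psbD* was -0.69 (SE 0.23, adjusted p = 0.0054) in Col-0 and -1.08 (SE 0.33, adjusted p = 0.0021) in *plt3 plt7*. *psbI* (ATCG00080, 7583 to 7693, plus strand) encodes a small subunit of the photosystem II core. *psbI* had 1793, 1244, 1521, 1643 and 1413 normalised counts in Col-0 SAM and 1811, 1464, 1245, 1026 and 1643 in *plt3 plt7* SAM. In IM, *psbI* had 569, 439.6, 464, 639 and 446 in Col-0 and 607, 439.7, 341, 552 and 445 in *plt3 plt7*. The tissues did not overlap in either genotype, and the log2 fold change was -1.58 (SE 0.13, adjusted p = 3.8e-34) in Col-0 and -1.60 (SE 0.17, adjusted p = 3.2e-20) in *plt3 plt7*. Scaled on the plastid loci, *psbI* stayed lower (-0.67 and -0.58) whereas *psbA* (0.31 and 0.22) was above 0 and *psbD* was above 0 in Col-0 (0.19).

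For photosystem I, *psaA* (ATCG00350, 39605 to 41857, minus strand) encodes a reaction centre subunit. *psaA* had 548, 425, 616, 430.2 and 486 normalised counts in Col-0 SAM and 376, 431, 434, 386 and 416 in *plt3 plt7* SAM. In IM, *psaA* had 366, 450.4, 467, 555 and 349 in Col-0 and 425, 339.7, 241, 438 and 372 in *plt3 plt7*. The tissues overlapped in both genotypes and *psaA* was not called, with -0.20 (SE 0.15, adjusted p = 0.225) in Col-0 and -0.18 (SE 0.15, adjusted p = 0.291) in *plt3 plt7*. Its cluster partner *psaB*, for the other reaction centre subunit, was lower by -0.86 (SE 0.16, adjusted p = 1.5e-07) in Col-0 and -0.93 (SE 0.22, adjusted p = 4.4e-05) in *plt3 plt7*. The cytochrome b6f gene with the highest TPM over 400 nt was *petD* (ATCG00730, 76481 to 77672, plus strand), for subunit IV of the complex that links the photosystems. *petD* had 328, 306, 399.8, 286 and 318 normalised counts in Col-0 SAM and 375, 371, 199.6, 254 and 199.8 in *plt3 plt7* SAM. In IM, *petD* had 122, 146, 203, 189.7 and 103 in Col-0 and 130.2, 93.6, 71.7, 131 and 114 in *plt3 plt7*. The mutant SAM range reached further down than that of Col-0, but neither genotype had tissues that overlapped. Its log2 fold change was -1.10 (SE 0.19, adjusted p = 1.0e-08) in Col-0 and -1.38 (SE 0.23, adjusted p = 5.5e-09) in *plt3 plt7*. *rbcL* (ATCG00490, 54958 to 56397, plus strand) is the only plastid gene of Rubisco. *rbcL* had 1269, 1015, 1238, 1035 and 1091 normalised counts in Col-0 SAM and 1029, 1007, 928, 931 and 846 in *plt3 plt7* SAM. In IM, *rbcL* had 546, 789.6, 772, 923 and 599 in Col-0 and 709.9, 446, 437, 607 and 585 in *plt3 plt7*. All 5 IM libraries of each genotype lay below its SAM libraries, and the log2 fold change was -0.64 (SE 0.14, adjusted p = 6.1e-06) in Col-0 and -0.77 (SE 0.13, adjusted p = 1.4e-08) in *plt3 plt7*. Scaled on the plastid loci, *rbcL* had 0.26 and 0.22 and *psaA* 0.70 and 0.80, the latter called higher.

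*atpB* (ATCG00480, 52660 to 54156, minus strand) encodes the catalytic beta subunit of ATP synthase. *atpB* had 76836, 75891, 93967, 80377 and 71689 normalised counts in Col-0 SAM and 97276, 77428, 40617, 76859 and 77122 in *plt3 plt7* SAM. In IM, *atpB* had 29668, 35556, 41884, 37382 and 31744 in Col-0 and 29556, 28200.1, 26108, 32705 and 34694 in *plt3 plt7*. Mutant SAM replicate 3 lay within the range of Col-0 IM, but within a genotype the tissues did not overlap. The log2 fold change was -1.18 (SE 0.10, adjusted p = 6.5e-32) in Col-0 and -1.29 (SE 0.17, adjusted p = 6.5e-14) in *plt3 plt7*, and *atpE*, which overlaps the end of *atpB*, had -1.05 (SE 0.12, adjusted p = 8.2e-17) in Col-0 and -1.26 (SE 0.21, adjusted p = 2.4e-09) in *plt3 plt7*. The genes *atpA*, *atpF*, *atpH* and *atpI* were also lower, with -0.64, -0.98, -0.74 and -0.80 in Col-0. In the NDH complex, which carries electrons around photosystem I, *ndhK* (ATCG00430, 49257 to 49934, minus strand) had the highest TPM over 400 nt. *ndhK* had 7732, 4336, 5149, 5694 and 4403 normalised counts in Col-0 SAM and 6501, 4717, 3804, 3758 and 7675 in *plt3 plt7* SAM. In IM, *ndhK* had 2300.0, 1489.6, 1549, 2118 and 1312 in Col-0 and 2319, 1205, 1246, 1473 and 1407 in *plt3 plt7*. All IM libraries lay below all SAM libraries. The log2 fold change was -1.64 (SE 0.23, adjusted p = 2.0e-12) in Col-0 and -1.79 (SE 0.29, adjusted p = 1.2e-09) in *plt3 plt7*. Its neighbours *ndhC* and *ndhJ* were lower to a like degree (-1.58 and -1.73 in Col-0, -1.86 and -1.75 in the mutant).

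*ndhD* (ATCG01050, 115665 to 117167, minus strand), for another NDH subunit, was the exception among the named genes. *ndhD* had 261, 235, 299, 356 and 365 normalised counts in Col-0 SAM and 354, 294, 245, 282 and 466 in *plt3 plt7* SAM. In IM, *ndhD* had 423, 278, 368, 521 and 317 in Col-0 and 492, 349, 263, 334 and 326 in *plt3 plt7*. The ranges of the tissues overlapped in both genotypes. The log2 fold change was 0.33 (SE 0.18, adjusted p = 0.092) in Col-0 and 0.10 (SE 0.19, adjusted p = 0.664) in *plt3 plt7*. The Col-0 value was just past both limits and lost the call when Col-0 SAM replicate 1, 2 or 3 or Col-0 IM replicate 1, 3 or 4 was left out (0.20 to 0.35, adjusted p = 0.115 to 0.266). The other higher loci were the identical pair ATCG00870 and ATCG01270, whose counts were near the filter. Each copy had 5.89, 4.01, 2.49, 8.30 and 7.04 normalised counts in Col-0 SAM and 2.52, 3.601, 4.41, 2.57 and 6.77 in *plt3 plt7* SAM. In IM, each copy had 25.98, 17.4, 12.2, 23.0 and 10.8 in Col-0 and 20.9, 25.6, 19.2, 20.3 and 13.1 in *plt3 plt7*. The IM ranges lay above the SAM ranges. The pair met the filter of 10 counts in 5 libraries through its IM libraries alone, so that no test of it is given, and without any 1 IM library of a genotype it was not tested in that genotype.

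The 3 ribosomal protein loci printed in full lay close together in 1 cluster. *rpl14* (ATCG00780, 80696 to 81064, minus strand) encodes a protein of the large ribosomal subunit. *rpl14* had 26842, 20658, 24859, 20126 and 20707 normalised counts in Col-0 SAM and 25520.3, 25091, 21019.8, 17844 and 17691 in *plt3 plt7* SAM. In IM, *rpl14* had 5960.2, 6788, 8491, 7585 and 6562 in Col-0 and 6451, 6528, 5035, 7003 and 6746 in *plt3 plt7*. All IM libraries lay below all SAM libraries, with a log2 fold change of -1.68 (SE 0.11, adjusted p = 8.2e-54) in Col-0 and -1.75 (SE 0.12, adjusted p = 5.1e-46) in *plt3 plt7*. *rpl16* (ATCG00790, 81189 to 82652, minus strand) encodes another large subunit protein and has an intron. *rpl16* had 59842, 39765, 48994, 46143 and 43234 normalised counts in Col-0 SAM and 54209, 49836, 41779, 34640.0 and 41832 in *plt3 plt7* SAM. In IM, *rpl16* had 17518, 17433, 18841, 19781 and 14608 in Col-0 and 18266, 14988, 11316, 15888 and 16563 in *plt3 plt7*. Here too no library of one tissue reached the other, and the log2 fold change was -1.43 (SE 0.11, adjusted p = 1.6e-38) in Col-0 and -1.53 (SE 0.13, adjusted p = 2.4e-29) in *plt3 plt7*. *rpl22* (ATCG00810, 83467 to 83949, minus strand), also of the large subunit, lies next to *rps3*. *rpl22* had 9265, 6435, 8135, 6599 and 6878 normalised counts in Col-0 SAM and 8758, 7863, 8060.4, 5392 and 6485 in *plt3 plt7* SAM. In IM, *rpl22* had 2633, 2796, 3425, 3291 and 2354 in Col-0 and 2874, 2812, 2595, 2667 and 2525 in *plt3 plt7*. The groups were again apart, with -1.36 (SE 0.12, adjusted p = 8.6e-28) in Col-0 and -1.44 (SE 0.11, adjusted p = 3.8e-35) in *plt3 plt7*. Scaled on the plastid loci, *rpl14* (-0.77 and -0.73), *rpl16* (-0.52 and -0.52) and *rpl22* (-0.46 and -0.40) stayed lower in both genotypes.

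All 4 polymerase genes had negative fold changes in IM against SAM, from -1.30 to -0.19 in Col-0 and from -1.41 to -0.32 in *plt3 plt7*, and scaled on the plastid loci *rpoA* stayed negative. *rpoA* (ATCG00740, 77901 to 78890, minus strand), for the alpha subunit, closes the cluster of ribosomal protein genes. *rpoA* had 12069, 9419, 12244, 10271 and 10243 normalised counts in Col-0 SAM and 11707, 10543, 7765, 7366 and 8873 in *plt3 plt7* SAM. In IM, *rpoA* had 4433, 3689, 4959, 5693 and 3315 in Col-0 and 4281, 3099, 2464, 3689.9 and 3907 in *plt3 plt7*. All IM libraries lay below all SAM libraries, and the log2 fold change was -1.30 (SE 0.13, adjusted p = 8.6e-22) in Col-0 and -1.41 (SE 0.15, adjusted p = 2.3e-19) in *plt3 plt7*. The other 3 genes form a cluster of their own. *rpoB* (ATCG00190, 23111 to 26329, minus strand), for the beta subunit, is its first gene. *rpoB* had 2640.5, 2011, 2384, 1826 and 1770.3 normalised counts in Col-0 SAM and 2438, 2091, 1792, 1554 and 1814 in *plt3 plt7* SAM. In IM, *rpoB* had 1106, 1145, 1184, 1235 and 992 in Col-0 and 1409.9, 1181, 945, 1168 and 1230.3 in *plt3 plt7*. The tissues were apart in both genotypes, with -0.91 (SE 0.11, adjusted p = 4.7e-15) in Col-0 and -0.71 (SE 0.13, adjusted p = 8.9e-08) in *plt3 plt7*. *rpoC1* (ATCG00180, 20251 to 23084, minus strand), for the beta' subunit, had few counts per length. *rpoC1* had 229.6, 276, 324, 232 and 227 normalised counts in Col-0 SAM and 286, 300.1, 143, 221 and 127 in *plt3 plt7* SAM. In IM, *rpoC1* had 164, 195, 224, 169 and 177 in Col-0 and 179, 144, 146, 230.0 and 163 in *plt3 plt7*. Its tissues were apart in Col-0 and overlapped in the mutant, and it had -0.47 (SE 0.14, adjusted p = 0.0023) in Col-0 and -0.32 (SE 0.24, adjusted p = 0.224) in *plt3 plt7*. Without mutant SAM replicate 3 or 5 or mutant IM replicate 4, *rpoC1* was called lower in the mutant (-0.44 to -0.47, adjusted p = 0.053 to 0.094).

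*rpoC2* (ATCG00170, 15938 to 20068, minus strand) encodes the beta'' subunit and shares 16.2% of its words with exons outside the plastid. *rpoC2* had 562, 408, 568, 559 and 555 normalised counts in Col-0 SAM and 598, 439, 374, 443 and 772 in *plt3 plt7* SAM. In IM, *rpoC2* had 573, 374, 426, 680.4 and 277 in Col-0 and 644, 363, 309, 437 and 351 in *plt3 plt7*. The tissues overlapped in both genotypes. The log2 fold change was -0.19 (SE 0.20, adjusted p = 0.411) in Col-0 and -0.32 (SE 0.22, adjusted p = 0.178) in *plt3 plt7*, and it was called lower without Col-0 IM replicate 4 (-0.35, adjusted p = 0.073), mutant SAM replicate 3 (-0.43, adjusted p = 0.069) or mutant IM replicate 1 (-0.52, adjusted p = 0.012). Scaled on the plastid loci, *rpoC1* (0.44 and 0.72) and *rpoC2* (0.68 and 0.68) were higher in both genotypes, *rpoB* was near 0 in Col-0 (0.01) and higher in the mutant (0.31, adjusted p = 0.038, short of the ratio limit), and *rpoA* was lower (-0.41 and -0.40). *ycf1*, the locus with most counts, completed the named genes. *ycf1* had 239315, 151148, 183097, 191833 and 174706 normalised counts in Col-0 SAM and 209829, 181779, 200554, 118396 and 184384 in *plt3 plt7* SAM. In IM, *ycf1* had 114647, 96988, 100107, 130437 and 82308 in Col-0 and 113193, 89763, 58960.5, 91595 and 94718 in *plt3 plt7*. Its IM libraries all lay below its SAM libraries, and the log2 fold change was -0.84 (SE 0.13, adjusted p = 3.5e-10) in Col-0 and -0.998 (SE 0.16, adjusted p = 2.9e-09) in *plt3 plt7*. Scaled on the plastid loci, *ycf1* had 0.06 in Col-0 and -0.00 in the mutant.

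Relative to the other plastid loci, 18 loci were higher in both genotypes and 17 were lower in both, where this scaling called 73.9% of all genes higher and 13.3% lower in Col-0 and 75.0% and 12.6% in the mutant, because it moved the median of all genes to 0.93 and 1.04. The 18 were 90% and 85.7% of the higher loci of each genotype, and 16 of 18 and 19 (88.9 and 84.2%) without ATCG00870 and ATCG01270, and the 17 were 68.0% and 85.0% of the lower ones. The lower loci included *rpl22*, *rps3*, *rpl16*, *rpl14*, *rpl36* and *rpoA* in 1 stretch, *ndhC*, *ndhK* and *ndhJ* in another, *psbK* and *psbI* side by side, and the single genes *petN*, *psbZ*, *cemA* and *ndhH*. Several of the higher loci were neighbours as well, and position was not tested. They included *matK*, for the maturase that helps to splice plastid introns (0.78 and 0.90), *accD*, for a subunit of acetyl-CoA carboxylase (1.03 and 0.99), *ccsA*, needed for cytochrome c assembly (0.73 and 0.76), *ycf4*, an assembly factor of photosystem I (0.99 and 0.91), and *ycf2*, for a large protein of the envelope (0.86 and 1.19). They also included *rps16*, the first exon of *rps12*, *rps18*, *rpoC1*, *rpoC2*, *psaA*, *psaC*, *ndhD*, *ndhE* and *ndhF*.

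Clusters of neighbouring genes differed in how far they changed, and the spread within a cluster varied as well. The 11 genes from *rpl23* to *rpoA*, which took 30.6% of the plastid counts, were all called lower in both genotypes, from -0.89 to -1.68 in Col-0 and from -1.20 to -1.75 in *plt3 plt7*. The 3 genes *ndhC*, *ndhK* and *ndhJ* changed by -1.58 to -1.73 and by -1.75 to -1.86. In the *rpoB* to *atpA* stretch of 8 genes, 6 were lower in each genotype, from -0.98 to -0.02 in Col-0 and from -1.03 to -0.32 in the mutant, and its *rpoB* to *rpoC2* part ran from -0.91 to -0.19 and from -0.71 to -0.32. Of *psaA*, *psaB* and *rps14*, 1 was lower in Col-0 and 2 in the mutant (-0.86 to -0.20 and -1.19 to -0.18). Of the 4 genes from *psbE* to *psbJ*, 1 was lower in Col-0 (-0.98 to -0.14), and 2 of the 3 tested in the mutant (-0.94 to -0.04). Over the chromosome, the changes of neighbours on the same strand correlated (r = 0.52 over 64 pairs in Col-0 and 0.53 over 63 pairs in the mutant). This is a description, since neighbours can share transcripts and libraries. Here both copies of repeated genes were kept, so their pairs enter more than once with equal values. Loci with higher levels had lower fold changes (r = -0.55 and -0.63 between log2 level and log2 fold change over 76 genes), and longer transcripts had higher ones (r = 0.30 and 0.39 with length). The r was -0.07 and -0.03 with A content and -0.07 and -0.10 with GC content.

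The nuclear genes that serve the plastid moved with the tissue in the same direction. Of 27 genes for plastid transcription and RNA processing, 25 were lower in IM in both genotypes, with medians of -1.48 in Col-0 and -1.43 in *plt3 plt7*. Of all genes tested, 30.5% were lower in Col-0 and 31.3% in *plt3 plt7*. The 2 exceptions were *RPOTmp*, a NEP that also serves mitochondria (0.00 and 0.19, adjusted p = 0.987 and 0.054), and *SIG5*, a sigma factor of PEP (-0.39 and -0.11, adjusted p = 0.111 and 0.584). By adjusted p, the leading 3 genes in Col-0 were *GLK2*, a transcription factor for chloroplast development (-3.53, SE 0.12, adjusted p = 1.1e-194), and *PAP5* and *PAP6*, for PEP-associated proteins (-1.50 and -1.44). In the mutant they were *GLK2* (-3.86, SE 0.14, adjusted p = 6.5e-176), *CSP41B* and *CSP41A*, for RNA-binding proteins of the chloroplast (-2.27 and -2.29). All 10 nuclear partners of the photosynthetic complexes were lower (medians -2.25 and -2.24), as were all 8 nuclear genes of the plastid ribosome (-1.67 and -1.75). These medians lie beside -0.91 and -1.15 for the plastid loci themselves, and the green leaf markers had -3.44 and -3.63. None of these nuclear genes was called for genotype or for the interaction. Few of all genes were: 0.292% higher and 0.162% lower in SAM, 0.458% and 1.07% in IM, and 0.108% and 0.246% for the interaction. Among the mitochondrial loci, 20 of 21 tested were higher in Col-0 IM (median 1.43) and 18 of 23 in mutant IM (0.86), with 0 lower in either. Of all genes tested, 26.7% and 26.4% were higher. Some loci, among them ATMG00570 and ATMG00960, missed the count filter in the fit of the SAM libraries, so they could pass here through their IM libraries. Both named loci count among the higher ones of Col-0 (2.26 and 2.43), and ATMG00570 among those of the mutant (1.08). Between the genotypes, 0 of 19 mitochondrial loci were called in SAM (median 0.14), where 0.292% of all genes were higher and 0.162% lower. In *plt3 plt7* IM, 4 of 22 were lower and 0 higher (median -0.37), where 1.07% of all genes were lower and 0.458% higher.

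No plastid locus was called between the genotypes in SAM. Of 83 loci tested, 0 were higher and 0 lower, where 0.292% of 19185 genes were higher in *plt3 plt7* and 0.162% lower. At an unadjusted p under 0.05 there were 11 loci, all with a negative fold change, beside 1336 of all 19185 genes tested. Repeat copies were each counted. With edgeR, 0 plastid loci were called. The smallest adjusted p was 0.348, for *psaA* (-0.34, SE 0.12), whose values are given above and overlapped between the genotypes. The next were the 2 identical copies of *ndhB* (-0.53, SE 0.19, adjusted p = 0.381) and *rbcL* (-0.26, SE 0.10, adjusted p = 0.443). The median over the loci was -0.09, with 62 of 83 below 0. Class medians ran from -0.32 for the NDH complex to -0.07 for ribosomal proteins, and scaled on the plastid loci they ran from -0.22 to 0.05. Leaving out 1 library gave medians of -0.17 to -0.03. SAM harvests 3 and 4 held 1 library of each genotype. With harvest group in the model, leaving out either library of such a harvest drops that harvest from the comparison. The *ndhB* copies were called lower without mutant SAM replicate 2 (-0.65, adjusted p = 0.094) and with the replicate number as a block in place of harvest group (-0.62, adjusted p = 0.042). The mean fragment length, estimated from the effective lengths, was 413.66 to 433 nt in Col-0 SAM and 347 to 408 nt in mutant SAM without overlap; its part in these values was not tested. Among the loci printed in full, *rpoA* had -0.23 (SE 0.12), *rpl14* -0.09, *psbD* 0.02, *ycf1* -0.09 and *atpB* -0.09.

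In IM, 1 locus was called. *psbJ* (ATCG00550, 63538 to 63660, minus strand) encodes a small photosystem II subunit and has 123 nt. *psbJ* had 275, 199, 202, 227 and 208 normalised counts in Col-0 SAM and 322, 193, 226, 145 and 283 in *plt3 plt7* SAM. In IM, *psbJ* had 199, 177, 191, 305 and 139 in Col-0 and 177, 101, 97.7, 132 and 102 in *plt3 plt7*. Mutant IM replicate 1 lay within the Col-0 IM range, and Col-0 IM replicate 4 was the highest IM library. *plt3 plt7* against Col-0 gave a log2 fold change of -0.71 (SE 0.21, adjusted p = 0.034) in IM and 0.11 (SE 0.18, adjusted p = 0.962) in SAM. In all, 0 of 86 loci tested were higher and 1 lower, where 0.458% of 19432 genes were higher and 1.07% lower. The call of *psbJ* was lost in edgeR (-0.71, adjusted p = 0.223), with an offset for transcript length (-0.38, adjusted p = 0.519), scaled on the plastid loci (-0.44, adjusted p = 0.416), and without Col-0 IM replicate 4 (-0.54, adjusted p = 0.175) or mutant IM replicate 2, 3 or 4 (-0.64, -0.58 and -0.71, adjusted p = 0.165, 0.176 and 0.113). The replicate block in place of harvest group kept *psbJ* (-0.73, adjusted p = 0.0035) and added *psbM*, another small photosystem II gene (-0.49, adjusted p = 0.029).

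Apart from *psbJ*, the IM fold changes were mostly below 0 without passing the test. The median over the 86 loci was -0.26, with 81 below 0, and scaled on the plastid loci it was -0.00. At an unadjusted p under 0.05 there were 10 loci, beside 1990 of all 19432 genes tested, and edgeR called 0 plastid loci. Behind *psbJ* came *atpB* (-0.22, SE 0.09, adjusted p = 0.254), *petA*, for cytochrome f (-0.50, SE 0.20, adjusted p = 0.281), and *rbcL* (-0.37, SE 0.16, adjusted p = 0.301). *rbcL* had 546 to 923 normalised counts in Col-0 IM and 437 to 709.9 in *plt3 plt7* IM, and the groups overlapped. It was called without Col-0 IM replicate 1 (-0.48, adjusted p = 0.077) or mutant IM replicate 1 (-0.51, adjusted p = 0.042). Without mutant IM replicate 1, *ndhG* was called too (-0.69, adjusted p = 0.082). *petA* was called without replicate 5 of Col-0 IM or of mutant IM (-0.75 in each, adjusted p = 0.0013 and 0.0016). Replicate 5 was the only library of each genotype in IM harvest 3. With harvest group in the model, leaving out either drops that harvest from the genotype comparison, so both are nearly the same fit. All 26 ribosomal protein loci were below 0 (-0.53 to -0.10, median -0.26) with 0 called. Mutant IM replicate 3 had the lowest plastid share, 0.627%, and the lowest *psbA*, *psbD*, *rpoA* and *ycf1* values of its group. It also had the most counts of all libraries, 114.9 M, and the shortest mean fragments, 287.6 nt against 358.8 to 438.5 nt in the other mutant IM libraries and 351.8 to 431 nt in Col-0 IM. Without it the median was -0.11, with 66 of 85 loci below 0, and without Col-0 IM replicate 4, which had the highest share of its group, -0.14, with 69 of 85. Leaving out any other library gave medians of -0.36 to -0.23. The mitochondrial share moved in the same direction, with a mutant mean 0.782 times that of Col-0 in IM and overlapping libraries, and its part in the result was not tested.

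**Figure D5:**
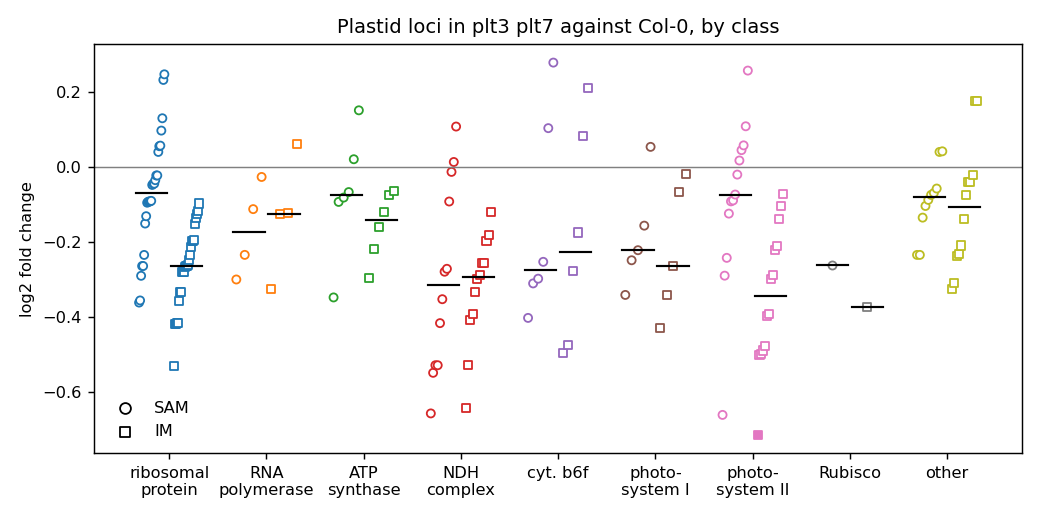
Log2 fold change of *plt3 plt7* against Col-0 (y axis) of each tested plastid locus by class, in SAM (circles) and IM (squares); horizontal bars are class medians and filled symbols passed the test. The 83 SAM loci have a median of -0.09 and the 86 IM loci of -0.26, with *psbJ* the single filled symbol at -0.71; scaled on the plastid loci the medians are 0.02 and -0.00.

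Whether the genotype effect differed between IM and SAM, which is the same test as whether the tissue effect differed between the genotypes, was examined in a fit of all 20 libraries. Of 87 plastid loci 0 were called, where 0.108% of 20348 genes were higher and 0.246% lower. A total of 2 had an unadjusted p under 0.05: *psbJ* (-0.82, SE 0.30, adjusted p = 0.353) and *petA* (-0.60, SE 0.26, adjusted p = 0.511). Of all 20348 genes, 1688 had such a p. With edgeR, 0 plastid loci were called. *petA* was called without replicate 5 of Col-0 IM or of mutant IM (-0.86 in each, adjusted p = 0.025 and 0.026). As above, both are nearly the same fit, since each drops IM harvest 3 from the genotype comparison. Loci called in the tissue comparison of one genotype alone, which were *rpoC1* and the first exon of *rps12* in Col-0 and *rps2*, *rps14*, *psbJ*, *psbT* and *ndhF* in *plt3 plt7*, were not shown to differ between the genotypes.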

How the data were processed

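RNA was extracted from about 50 meristems per library, and strand-specific libraries were sequenced. The authors trimmed reads with fastp 0.23.4 and assigned them to the TAIR10.1 cDNA sequences with kallisto 0.46.1. The deposited tables give each transcript an estimated count (unnormalised, with fractions) and the authors' TPM, which was used to choose the loci printed in full and as an alternative share. Whether poly(A) was selected, and the strand setting of kallisto, are not given in the sources used here.

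Estimated counts of the 48266 transcripts were summed to 27562 genes and rounded. Totals of 24.8 to 114.9 M per library leave counting error small for most plastid loci and large near the filter. DESeq2 1.42.0 (Wald test, R 4.3.3) was run on genes that reached 10 counts in 5 or more libraries. It compared genotype within each tissue with harvest group as a covariate, tissue within each genotype without it, and the interaction over all 20 libraries, where harvest group entered within tissue. Every fit held all genes, p-values were adjusted over all of them, and a call needed an adjusted p under 0.1 and a change of over 25%. Normalised counts are counts over size factors of the 20 libraries. Libraries are separate pools of meristems, so p-values measure the spread between these pools. Tables were made in Python 3.11.15 with pandas 2.3.3, and the fits were tested on simulated data. Loci printed in full were the one with the highest mean TPM per class over 400 nt, *rbcL*, *psbA*, all *rpo* genes, and, in each fit, the 3 higher and 3 lower called loci leading by adjusted p. The loci, lists and rules were chosen with earlier results of these data known. Alternatives were edgeR 4.0.16 (quasi-likelihood, TMM), TMM factors, size factors from plastid loci, no count filter, an adjusted p under 0.05, no ratio minimum, a transcript length offset, repeat copies summed, fits without harvest group or with a block for replicate number, and leaving out each library. Single values of some loci are not reported here.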

Additional observations from a re-analysis of the deposited data

Results flagged for a closer look

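Single libraries stood apart from the other 4 of their group in 8 of 120 sets of 5 values examined, where chance alone gives about 1 in 20. In Col-0 SAM, replicate 2 had 408 normalised counts of *rpoC2* against 555 to 568 in the others. In *plt3 plt7* SAM, the cytochrome b6f share of the plastid counts was 0.204% in replicate 5 against 0.223 to 0.229%, and the NDH complex share was 1.87% in replicate 3 against 2.46 to 2.61%. In *plt3 plt7* IM, the photosystem II share was 4.66% in replicate 1 against 3.91 to 4.09%, the ATP synthase share was 23.3% in replicate 3 against 16.3 to 17.8%, and the Rubisco share was 0.174% in replicate 2 against 0.211 to 0.222%. In the same group *ndhK* had 2319 normalised counts in replicate 1 against 1205 to 1473, and *rpl14* had 5035 in replicate 3 against 6451 to 7003.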

How the results depend on the processing

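Settings that scale on all genes called 59 to 67 plastid loci lower in IM in Col-0 and 62 to 68 in *plt3 plt7*, the lowest Col-0 count with repeat copies summed. Leaving out 1 library gave 63 to 68 in Col-0 and 65 to 70 in *plt3 plt7*, with 0 to 3 and 0 to 2 higher. Size factors from the plastid loci gave 20 higher and 25 lower in Col-0 and 21 higher and 20 lower in the mutant. On that scaling the sign turned in Col-0 for *psbA* (0.31), *rpoC2* (0.68), *rpoC1* (0.44), *rpoB* (0.0053), *psbD* (0.19), *psaA* (0.70), *rbcL* (0.26), *psbJ* (0.73) and *ycf1* (0.060), and in the mutant for *psbA* (0.22), *rpoC2* (0.68), *rpoC1* (0.72), *rpoB* (0.31), *psaA* (0.80), *rbcL* (0.22) and *psbJ* (0.083). It does so by construction, since it centres the plastid loci. For genotype, leaving out 1 library gave 0 higher and 0 to 2 lower in SAM, 0 higher and 0 to 3 lower in IM, and 0 higher and 0 to 1 lower for the interaction. The 1 lower locus of IM became 0 in edgeR, with plastid scaling and with the length offset; the cause was not tested. The mean plastid shares of Col-0 SAM, *plt3 plt7* SAM, Col-0 IM and *plt3 plt7* IM were 11.5, 11.1, 6.11 and 5.59% of TPM and 1.247, 1.18, 0.658 and 0.560% of counts without *ycf1*. The TPM shares rest mostly on loci of at most 400 nt, which held 65.8 to 82.8% of the plastid TPM. Leaving out 1 library gave mean shares of all counts of 1.69 to 1.80%, 1.58 to 1.74%, 0.935 to 1.04% and 0.800 to 0.897%.

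The study's methods place the collection of the replicates on separate days without saying that a number marks a day. Same-numbered libraries of the genotypes shared a harvest group in 4 of 5 pairs in SAM and 5 of 5 in IM, where harvest group was in the model, and the deviations of same-numbered libraries correlated above 0.1 in 3 of 5 pairs in SAM, 4 of 5 in IM, 1 of 5 across the tissues in Col-0 and 0 of 5 in the mutant. With the replicate number as a block, 2 loci were lower in SAM (the *ndhB* copies, -0.62, adjusted p = 0.042), 2 in IM (*psbJ*, and *psbM* with -0.49, adjusted p = 0.029), 66 lower and 2 higher in Col-0 IM against SAM, and 67 lower and 2 higher in the mutant. The best match of a library carried its own number in 2, 2, 1 and 0 of these pairs. No fit with the block was made for the interaction or the shares. Over all genes, DESeq2 called 87 genes for genotype in SAM and edgeR 5, 297 and 146 in IM, and 72 and 11 for the interaction.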
